A study of Cocos nucifera and Zingiber officinale with 11 samples.

Results

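The miRNAs described here are the 138 miRNA names, of 418 in the whole table, that had a value above 0 in exosome-like nanoparticles (ELNs) of pea, of soybean or of both. ELNs are small membrane-bound particles, and here they came from 11 edible plants with 1 small RNA library each and no replicates. Pea and soybean, bought at a market, were both ground with phosphate-buffered solution in a mixer, the juice was cleared by steps of centrifugation, and RNA from the pelleted particles was sequenced on an Illumina HiSeq instrument. Reads were matched to known plant mature miRNAs at up to 2 mismatches and scaled to the read total of the library as RPM, and the table gives the RPM and 1 listed sequence for each name and library. The sources give no cultivar, age or treatment for either plant, and no label says that seed was used, since both tissues are called fruit.

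The labels of the pea library do not agree among themselves. Its title and tissue name lima bean, while its description says pea and its organism is Lathyrus oleraceus, a name of pea. It is called pea below. None of the 138 names carries a code of pea or of lima bean, so the identity of the plant could not be checked with these files. Common bean, Phaseolus vulgaris, belongs to the genus of lima bean. The 2 names coded for it were listed in both libraries, at 0.737% of the summed level in pea, against 0.197% in soybean. The difference lay in pvu-MIR-482-5p (0.587% and 0.0459%), as pvu-MIR-159a.2 had 0.151% in each. Codes of other legumes differed too, some higher in pea and some lower, so such shares do not identify the plant.

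Plant miRNAs are cut from hairpin transcripts and guide ARGONAUTE proteins to mRNAs with nearly matching sites, which are then cleaved or held back from translation. Old families, shared by most land plants, act mainly on transcription factors of growth, phase change and organ shape. Legumes are also known for a large set of 22 nt miRNAs, among them the MIR-482 and MIR-2118 families, which act on resistance genes of the NBS-LRR class and start the production of phased small RNAs from them. A name such as mtr-MIR-159a carries the code of the species in which the reference was described (mtr, Medicago truncatula) and not of the plant that was sampled.

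The sequences below are shown because most of the level in both libraries, and most of the differences between them, rest on them. Capitals mark the seed, bases 2 to 8 counted from the 5′ end, and T stands for U as in the table. The first set holds sequences that were the same in both libraries. They are a GAMYB regulator, an HD-ZIP III regulator and the leading members of the MIR-2118 and MIR-482 families. A 5p name of MIR-482 and a pair of legume sequences that share a seed follow.
mtr-MIR-159a: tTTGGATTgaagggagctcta
aly-MIR-166h-3p: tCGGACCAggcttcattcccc
vun-MIR-2118: tTGCCGATtccacccattccta
gma-MIR-482d-3p: tCTTCCCTacacctcccatacc
pvu-MIR-482-5p: gGAATGGGctgattggga
gma-MIR-1509a: tTAATCAAggaaatcacggtcg
gma-MIR-1509b: tTAATCAAggaaatcacggttg

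The second set holds members of the MIR-156, MIR-157, MIR-319 and MIR-396 families, where names or members changed places between pea and soybean. The 4 sequences of MIR-156 and MIR-157 share 1 seed, both MIR-396 sequences share another, and the MIR-319 sequences have a seed each.
gma-MIR-156f, listed in pea: tTGACAGAagagagagagcac
mtr-MIR-156a, listed in soybean: tTGACAGAagagagagagcac
gma-MIR-156n: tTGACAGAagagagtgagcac
ath-MIR-157c-5p: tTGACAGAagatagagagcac
vvi-MIR-319e: tTTGGACTgaagggagctcct
mtr-MIR-319d-3p: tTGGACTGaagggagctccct
mtr-MIR-396b-5p, listed in pea: tTCCACAGctttcttgaactg
mtr-MIR-396a-5p, listed in soybean: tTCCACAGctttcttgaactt

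The last set holds fragment-like names, a term used for a list of miRNA families held to resemble pieces of tRNA or rRNA. Names were placed in it by family number, and their listed reads were not compared with tRNA or rRNA here. Their listed sequences often differed between the libraries, and both are given where they did.
peu-MIR-2916 in pea: tGGGGGCTcgaagacgatca
peu-MIR-2916 in soybean: gGGGCTCGaagacgatc
osa-MIR-5072 in pea: cCCCAGCGgagtcgc
osa-MIR-5072 in soybean: cCCCAGTGgagtcgcc
bdi-MIR-5054 in pea: cCCCACGGtgggcg
bdi-MIR-5054 in soybean: cCCCACGGtgggcgcc
gma-MIR-6300, soybean only: gTCGTTGTagtatagtgg

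The number of reads matched to miRNAs differed between the libraries and set what could be seen. The RPM values of a library rose in equal steps of 1 read, which gave back the reads behind them. The pea library had 45837 miRNA reads, against 280744 in the soybean library. They were 13.2% of the read total of 346601 by which RPM was scaled in pea, against 53.3% of 526396 in soybean. Both totals are far below the high-quality reads listed for these libraries in the study, which were close to equal for pea and soybean, so sequencing depth as listed there does not differ as the miRNA reads do. Which reads the totals cover is not given in the sources used here, and repeat sequences were removed before matching, so a read below is 1 step of RPM and may not be 1 sequenced read. Every interval takes these steps as the counts. The smallest listed value was 5 reads in both, so a name listed at 0 may have had a few reads, and no fold is given against 0. A pea name therefore needed at least 0.0109% of the pea sum to be listed, against 0.00178% of the soybean sum.

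Because the summed level was 4.03 times higher in soybean than in pea by RPM, levels are compared as shares of the summed miRNA level of each library. The ratio is the pea share over the soybean share. On the RPM scale the median log2 ratio moved by -2.01, so a ratio between 1 and 4.03 by share is below 1 by RPM. Intervals are 95%, Wilson for shares and exact binomial for ratios, and cover counting error only, and PCR copies of 1 molecule make them too narrow. With 1 library per plant the spread between plants of a species is unknown and no test was possible, so "higher" and "lower" speak of these libraries.

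Pea and soybean listed many of the same miRNAs. Pea listed 80 names and soybean 127, and 69 were in both, 86.2% of the pea names and 54.3% of the soybean names. These 69 names held 88.9% of the level in pea (88.6–89.2) and 93.3% in soybean (93.2–93.4). By family, taken from the number in the name, 52 of 87 families were in both, 4 in pea only and 31 in soybean only. These counts are not on an equal footing, since the lowest share that could be listed was 0.0109% in pea and 0.00178% in soybean. Some soybean-only families, such as MIR-390 and MIR-408, lay under the pea limit. Among the 55 pairs of the 11 libraries, pea and soybean came first in the number of names in both, ahead of grapefruit and orange with 52. They were also the least distant pair by the Bray-Curtis measure on shares, which is 0 for equal and 1 for separate libraries. Its value was 0.344, followed by soybean and Hami melon with 0.418 and by pea and Hami melon with 0.575. The name mtr-MIR-159a had its highest shares of the series in pea (29.6%), soybean (42.0%) and Hami melon (44.0%), and its part in this measure was not tested.

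Shares of the 69 names in both libraries ran from near equal to far apart. At least 2-fold higher in pea were 17 of 69 names (24.6%), and at least 2-fold lower in pea were 19 (27.5%), which left 33 within 2-fold. By RPM 10 of the 69 were higher in pea, and 7 of the 17 turned to lower. The interval of the ratio left out 1 for each of the 36 names past 2-fold. The log2 ratio had a median of 0.03 and ran from -5.28 to 8.23. Across the 69 names, which are not independent replicates and share the denominators of both libraries, Spearman's rho of the shares was 0.677 and Pearson's r of their log10 values was 0.726. Of the 20 highest names of each library 13 were the same.

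**Figure D1:**
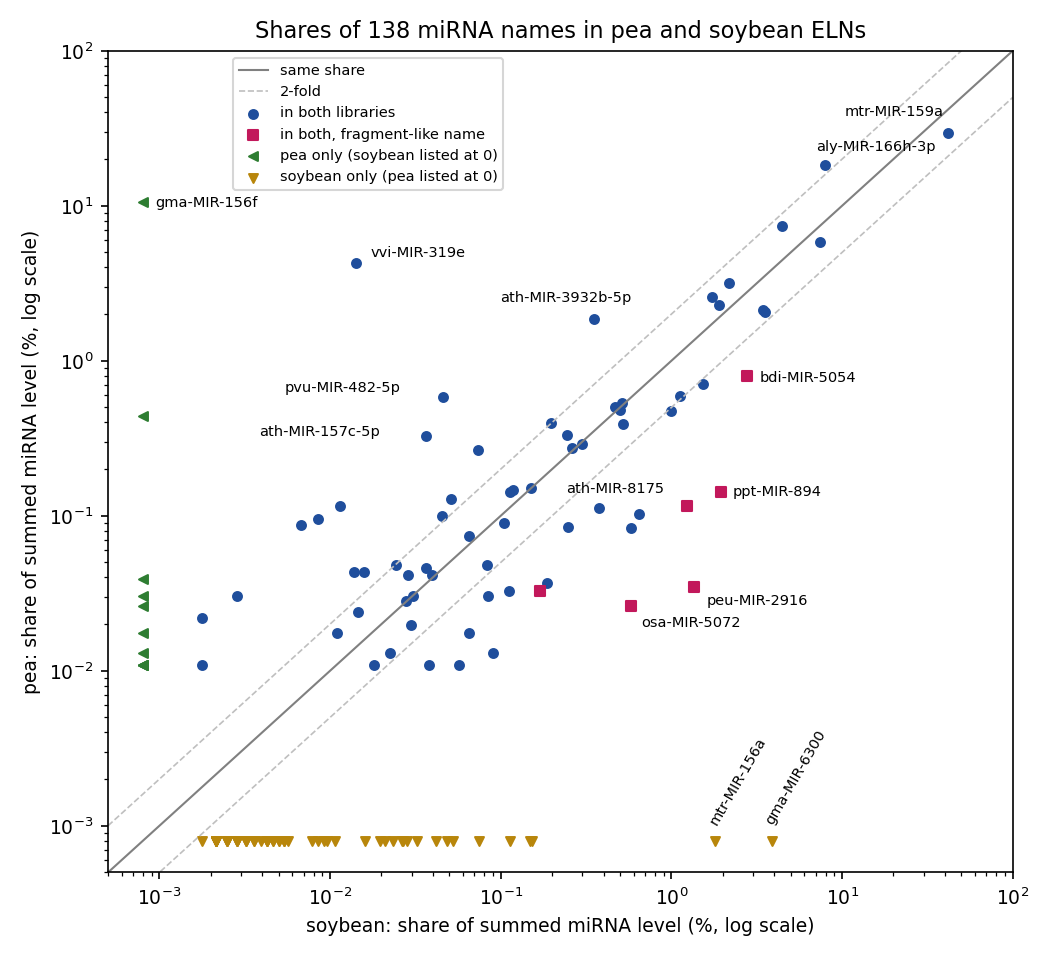
Share of the summed miRNA level in pea (vertical, %, log scale) and in soybean (horizontal, %, log scale) for the 138 names, 1 point each, with names listed at 0 in a library set at its edge. The 69 names in both lie around the line of equal shares, vvi-MIR-319e far above it and the 6 fragment-like names in both (squares) below it; by RPM the whole cloud shifts down by 2.01 on the log2 scale.

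Members of the MIR-156 and MIR-157 families, which repress SPL transcription factors and hold plants in the juvenile phase, made up a larger part of the level in pea. They held 11.2% in pea (10.9–11.5), against 2.02% in soybean (1.96–2.07), a ratio of 5.58 (5.37–5.79) that stayed above 1 by RPM at 1.38. One sequence carried nearly all of it under a different name in each library. It was listed as gma-MIR-156f in pea with 4821 reads (10.5%), and as mtr-MIR-156a in soybean with 5063 reads (1.80%), and each name was listed at 0 in the other library. Taken as 1 sequence, its ratio was 5.83 (5.61–6.07). A comparison by name alone would thus count the third highest miRNA of pea as lacking in soybean.

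The other guide-strand members of this group were higher in pea as well, at lower levels. MIR-157c-5p had 151 reads in pea and 102 in soybean, a ratio of 9.07 (7.01–11.8). MIR-156n had 40 and 19 reads, a ratio of 12.9 (7.30–23.6), and aly-MIR-156e-5p 122 and 206 reads, a ratio of 3.63 (2.88–4.56) that fell below 1 by RPM. The highest 3p name went the other way. For mtr-MIR-156i-3p there were 6 reads in pea and 254 in soybean, a ratio of 0.145 (0.0526–0.319). Among MIR-156 reads of names that give an arm, the 5p arm thus held 91.7% in pea (85.8–95.3), against 44.8% in soybean (40.3–49.4), but the abundant gma-MIR-156f and mtr-MIR-156a give no arm and are not in these counts. Also in pea only were tae-MIR-156 and mtr-MIR-156b-3p, with 5 reads each.

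In both libraries the highest name was mtr-MIR-159a, which acts on GAMYB transcription factors of the gibberellin response. It held 29.6% in pea with 13563 reads, against 42.0% in soybean with 117874 reads, a ratio of 0.705 (0.692–0.717). Another product with this family number, pvu-MIR-159a.2, has an unlike sequence, and its shares were nearly equal, 0.151% in each library with a ratio of 0.997 (0.761–1.29). The variant osa-MIR-159f, 1 base from mtr-MIR-159a, was listed in soybean only with 136 reads.

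The MIR-319 family, a relative of MIR-159 that acts on TCP transcription factors of leaf shape, held the highest ratio of names in both libraries. For vvi-MIR-319e there were 1960 reads in pea (4.28%) and 40 in soybean (0.0142%), a ratio of 300 (220–421). It was rank 6 in pea and rank 78 in soybean. The remaining members were lower in pea or listed in soybean only. mtr-MIR-319d-3p had 943 reads in pea (2.06%) and 9907 in soybean (3.53%), a ratio of 0.583 (0.545–0.623). gma-MIR-319f had 8 and 182 reads, a ratio of 0.269 (0.114–0.542), and gma-MIR-319l and gma-MIR-319n were listed in soybean only, with 428 and 7 reads. The soybean sequence of gma-MIR-319l overlaps that of vvi-MIR-319e with a shift. The ratio of 300 is that of the name vvi-MIR-319e alone and leaves those 428 reads out, so it would be lower with both names counted together.

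Within the family, vvi-MIR-319e held 67.3% of MIR-319 reads in pea (65.6–69.0), against 0.379% in soybean (0.278–0.515). These shares within a family do not depend on the scaling of the library. In the other libraries it held 84.5% of MIR-319 reads in grapefruit and 83.8% in orange, 6.61% in coconut and 1.05% in blueberry, and was listed at 0 in Hami melon, tomato, pear, ginger and kiwifruit. The sum of the family was 6.35% in pea and 3.76% in soybean, a ratio of 1.69 (1.62–1.76) that turned to 0.419 by RPM. Reads of family members this alike can be counted under either name, and the part of this in the difference was not tested.

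The HD-ZIP III regulators, MIR-165 and MIR-166, act on transcription factors that set the upper side of leaves and the pattern of vascular tissue. They held 20.9% in pea (20.5–21.3), against 9.71% in soybean (9.60–9.82), a ratio of 2.15 (2.10–2.20) that turned to 0.533 by RPM. The second highest name of both libraries, aly-MIR-166h-3p, carried most of this, with 18.2% in pea and 7.92% in soybean (ratio 2.30, 2.24–2.35, below 1 by RPM). gma-MIR-166h-3p, a shifted form of the same sequence, differed less, with 2.59% in pea and 1.72% in soybean (ratio 1.50, 1.41–1.60, below 1 by RPM). The balance of the arms was alike, since the 5p arm was 0.481% of MIR-166 reads in pea (0.361–0.641) and 0.547% in soybean (0.466–0.642). Listed in soybean only were mtr-MIR-166e-5p, ath-MIR-165a-3p and osa-MIR-166e-3p, with 22, 8 and 6 reads.

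The auxin-related and growth-related groups did not move together. MIR-160 and MIR-167 act on auxin response factors and held 2.63% in pea, against 3.92% in soybean (ratio 0.670, 0.631–0.711). Their leading member was gma-MIR-167e, with 976 reads in pea and 9702 in soybean (ratio 0.616, 0.576–0.658), while ath-MIR-167d, which has the same seed, had 125 and 732 reads (ratio 1.05, 0.858–1.27). All 4 of their names in both libraries were within 2-fold, as were 33 of all 69 names.

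MIR-396, which acts on growth-regulating factors, was higher in pea, again with another name in each library. Pea listed mtr-MIR-396b-5p with 201 reads (0.439%), and soybean mtr-MIR-396a-5p with 209 reads (0.0744%). The sequences are 1 base apart, and the ratio of the family was 5.89 (4.83–7.18), or 1.46 by RPM. In the rest of the series the a form was listed in blueberry, coconut, grapefruit, kiwifruit, orange and tomato, and the b form in Hami melon, ginger, grapefruit and pear. Grapefruit was the only library of the 11 that listed both.

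Several smaller regulator groups were lower in pea. The MIR-169 family, which acts on NF-Y subunits, held 0.737% in pea and 1.90% in soybean (ratio 0.389, 0.347–0.434), and no MIR-172 name was listed in either. Its guide-strand member mtr-MIR-169g had 47 reads in pea and 1819 in soybean (ratio 0.158, 0.116–0.211). Most of its reads in both libraries belonged to zma-MIR-169a-3p, from the opposite arm, with 271 and 3167 reads (ratio 0.524, 0.461–0.594).

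GRAS regulators of the MIR-171 family act on transcription factors of the shoot meristem. They had 39 reads in pea and 857 in soybean (ratio 0.279, 0.197–0.384), but the members differed. mtr-MIR-171d, whose 21 nt sequence equalled its reference in both libraries, had 22 and 232 reads and was within 2-fold (ratio 0.581, 0.357–0.901). vvi-MIR-171h, listed as a 16 nt sequence more than 1 base from its reference, had 17 and 523 reads (ratio 0.199, 0.115–0.322). The MIR-164 family, which acts on NAC factors, had 14 and 420 reads (ratio 0.204, 0.111–0.346). This depended on which names are counted. Its guide strand ath-MIR-164b-5p had nearly equal shares (14 and 86 reads, ratio 0.997, 0.523–1.77). The rest of the soybean reads were under 3p names with 15 nt sequences more than 1 base from their references, led by bdi-MIR-164a-3p with 316 reads. A piece of that sequence was listed in pea as ppt-MIR-1030i with 6 reads.

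Regulators of the plant's own silencing machinery were within 2-fold in all 3 names, as were 33 of all 69 names. MIR-162, which acts on a DICER-LIKE mRNA, had 153 reads in pea and 684 in soybean (ratio 1.37, 1.14–1.63). MIR-168c-5p, which acts on an ARGONAUTE mRNA, had 41 and 296 reads (ratio 0.848, 0.596–1.18), and gma-MIR-403b, which acts on another ARGONAUTE mRNA, 22 and 68 reads (ratio 1.98, 1.17–3.25). By RPM the whole group had a ratio of 0.313.

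Of the miRNAs of nutrient supply, those of copper were scarce in both libraries, and those of phosphate and sulphate were listed at 0 in pea. The copper miRNAs MIR-398 and MIR-408 act on copper-binding proteins. They had 19 reads in pea and 22 in soybean (ratio 5.29, 2.71–10.2, or 1.31 by RPM). The low end of this interval is below 4.03, so the direction by RPM is not settled. Of these reads, 14 in pea and 8 in soybean were zma-MIR-398b-5p, listed as a 17 nt sequence more than 1 base from its reference. mtr-MIR-398c, whose sequence equalled its reference, had 5 reads in each library. MIR-395, which acts on sulphate transport and assimilation, was listed at 0 in pea, while ath-MIR-395a had 419 reads in soybean (0.149%). That share is above the lowest share that pea could list. No MIR-399, MIR-827 or MIR-2111 name was listed in either library. MIR-393, which acts on auxin receptors, had 10 reads in pea and 5 in soybean under gma-MIR-393i (ratio 12.2, 3.81–45.7). The low end here is also below 4.03, so its direction by RPM is not settled. MIR-390 was listed in soybean only, with 22 reads (0.00784%). That is under the lowest share that pea could list (0.0109%), so a lack in pea was not detectable.

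**Figure D2:**
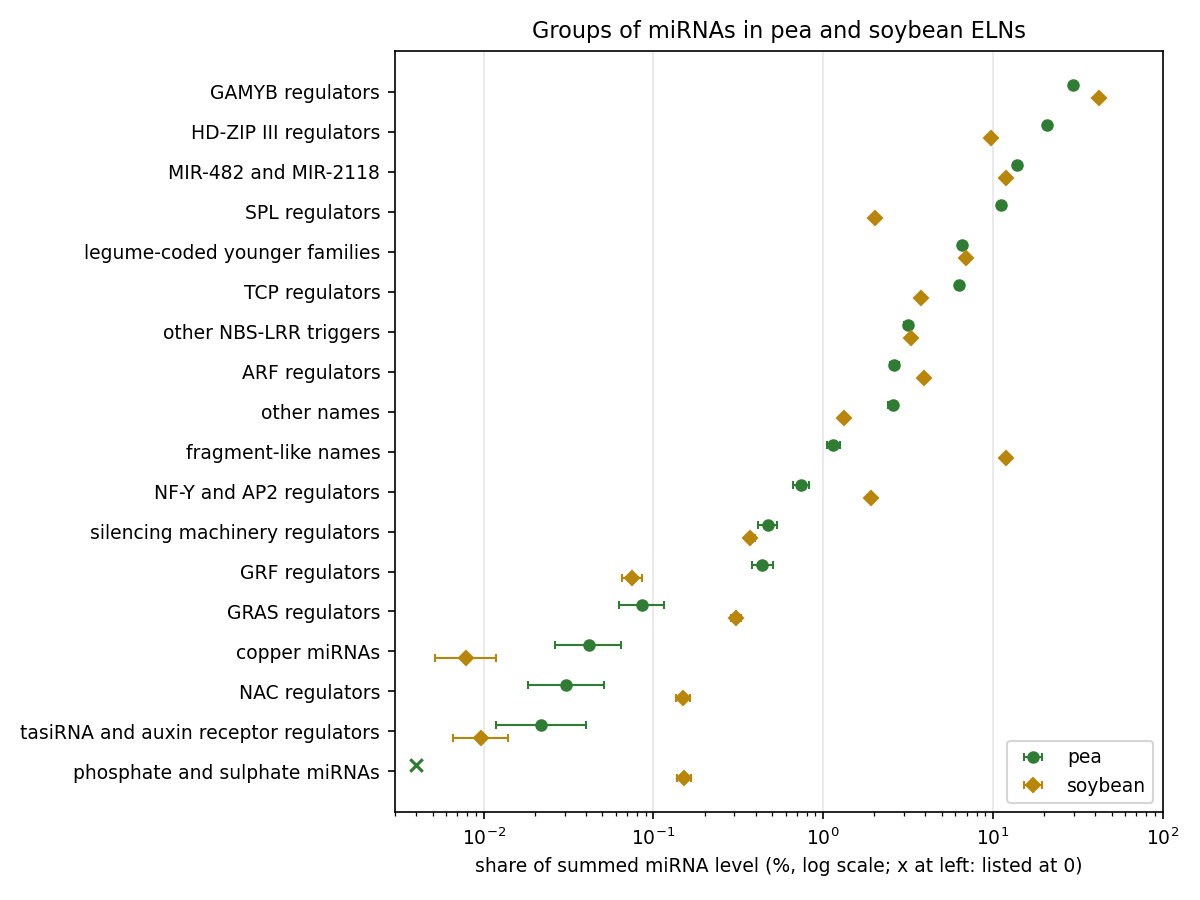
Summed share of each group of miRNAs (horizontal, %, log scale) in pea (circles) and soybean (diamonds), with 95% Wilson intervals that cover counting error only; a cross marks a group listed at 0. SPL and GRF regulators lie higher in pea by share and by RPM. HD-ZIP III, TCP and silencing machinery regulators, MIR-482 and MIR-2118, and the other names do so by share only. The copper miRNAs lie higher by share, on 19 reads in pea and 22 in soybean, and their direction by RPM is not settled. The tasiRNA and auxin receptor regulators, on 10 and 27 reads, have an interval that holds 1 (ratio 2.27, 0.980–4.84). The fragment-like names lie 10.4 times lower in pea by share.

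The legume resistance-gene miRNAs took similar shares of both libraries. MIR-482 and MIR-2118 together held 13.9% in pea (13.6–14.2), against 11.9% in soybean, a ratio of 1.17 (1.14–1.20) that is 0.290 by RPM. Their balance differed. vun-MIR-2118 held 7.36% in pea and 4.44% in soybean (ratio 1.66, 1.60–1.72, below 1 by RPM), and gma-MIR-482d-3p held 5.86% and 7.40% (ratio 0.792, 0.760–0.824). MIR-2118 was thus the higher of the pair in pea and MIR-482 the higher in soybean, an order within each library that no scaling changes.

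The less abundant MIR-482 members differed more. pvu-MIR-482-5p had 269 reads in pea and 129 in soybean, a ratio of 12.8 (10.3–15.9), and gma-MIR-482a-3p had 53 and 32 reads, a ratio of 10.1 (6.42–16.3). Both stayed above 1 by RPM. By name, the 5p arm was 8.94% of MIR-482 reads in pea, against 0.673% in soybean (0.571–0.793). These counts mix members, since most 3p reads were gma-MIR-482d-3p, with 2686 in pea and 20784 in soybean. They are thus not the balance of the arms of 1 hairpin. Against gma-MIR-482a-3p alone, pvu-MIR-482-5p had more reads in both libraries. gma-MIR-482b-5p was listed in soybean only, with 12 reads.

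The other legume triggers on NBS-LRR mRNAs, MIR-1507, MIR-1510 and MIR-2109, held 3.14% in pea and 3.27% in soybean (ratio 0.960, 0.907–1.01). gma-MIR-1507a led in both, with 1047 reads in pea and 5314 in soybean (ratio 1.21, 1.13–1.29, below 1 by RPM). gso-MIR-2109 had 133 and 836 reads and a ratio of 0.974 (0.805–1.17), whereas the opposite arm gma-MIR-2109-3p had 218 and 2818 reads and a ratio of 0.474 (0.411–0.544). MIR-1510 rested on 5 reads of gma-MIR-1510b-3p in pea and 16 reads of gma-MIR-1510a-3p in soybean, whose sequences are 1 base apart.

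Younger families with a legume code, numbered above 1000 and in none of the groups above, were the most numerous class, with 38 names. Together they held 6.56% in pea (6.34–6.79), against 6.93% in soybean (6.83–7.02). Of the 20 in both libraries 13 were within 2-fold, 2 were higher in pea and 5 lower, against 33 within, 17 higher (24.6%) and 19 lower (27.5%) of all 69 names, so the lower count is near that over all names. Their median log2 ratio was -0.00, against 0.03 over all 69 names. gma-MIR-1509a led them, with 1460 reads in pea (3.19%) and 6062 in soybean (2.16%), a ratio of 1.48 (1.39–1.56) that is below 1 by RPM. gma-MIR-1509b, of the same seed, had 179 and 1465 reads (ratio 0.748, 0.637–0.875). No target role is given here for these names.

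Some of these young miRNAs had nearly the same share in both libraries. gso-MIR-3522a had 244 reads in pea and 1432 in soybean (ratio 1.04, 0.907–1.20), gma-MIR-4412-5p 230 and 1305 reads (ratio 1.08, 0.934–1.24), and gma-MIR-1511 222 and 1396 reads (ratio 0.974, 0.842–1.12). Others differed past 2-fold. gma-MIR-4413b had 323 and 4307 reads (ratio 0.459, 0.409–0.514) and gma-MIR-5670b 52 and 1051 reads (ratio 0.303, 0.225–0.400). gma-MIR-5038a, with 59 and 144 reads, was higher in pea (ratio 2.51, 1.82–3.42, below 1 by RPM).

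A legume code was carried by 51 of the 80 pea names, with 72.0% of the level, and by 77 of the 127 soybean names, with 80.4%. Of the 69 names in both, 22 were listed in none of the other 9 libraries, and 20 of these 22 had a legume code. The 22 held 3.12% in pea and 4.74% in soybean. Among them 1 was at least 2-fold higher in pea, 6 lower and 15 within 2-fold, whereas of the 47 names also listed elsewhere 16 were higher, 13 lower and 18 within. Of the 138 names 57 carry the code of soybean and none that of pea, and the part of the reference set in these counts was not tested. Some legume-coded names had the same listed sequence in other libraries of the series. gma-MIR-1507a was listed in 6 of them, with 10 reads in kiwifruit and 702 in blueberry. The source of such reads, and any bearing on the overlap of pea and soybean, was not tested.

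The fragment-like names were far lower in pea. They held 528 reads, or 1.15% (1.06–1.25), in pea, against 33706 reads in soybean, a ratio of 0.0959 (0.0879–0.105). All 6 that were in both libraries were at least 2-fold lower in pea, against 27.5% of the 69 names. peu-MIR-2916, held to resemble rRNA, had 16 reads in pea and 3808 in soybean (ratio 0.0257, 0.0147–0.0418), the lowest ratio of the 69. osa-MIR-5072 had 12 and 1623 reads (ratio 0.0453), ppt-MIR-894 65 and 5453 reads (ratio 0.0730) and ath-MIR-8175 53 and 3472 reads (ratio 0.0935). gma-MIR-6300, held to resemble a piece of tRNA, was listed at 0 in pea and was the fifth highest name of soybean, with 10885 reads (3.88%). Also in soybean only were bdi-MIR-5059 and ptc-MIR-6478, with 75 and 74 reads. With the 9 fragment-like names left out of the sums, 15 names were at least 2-fold higher and 14 at least 2-fold lower in pea.

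**Figure D3:**
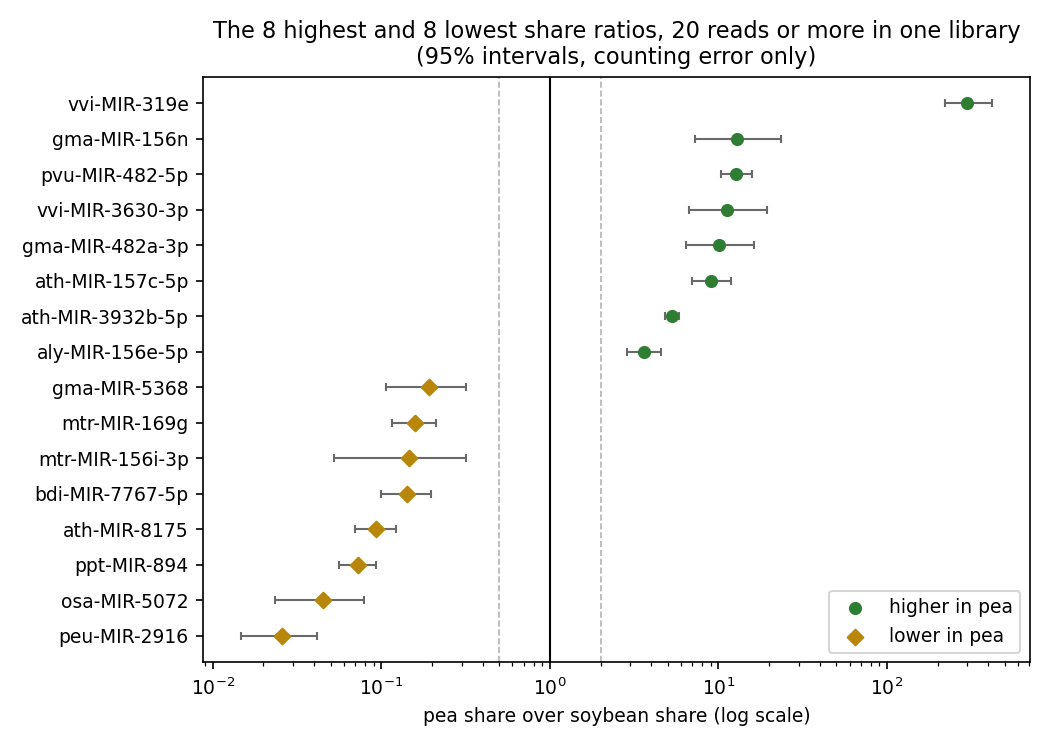
Pea share over soybean share (horizontal, log scale) with 95% intervals for the 8 highest and 8 lowest ratios among names in both libraries with 20 reads or more in at least 1 of them. vvi-MIR-319e stands apart at 300, the other 7 high names lie between 3.63 and 12.9, and fragment-like names fill the 4 lowest places; by RPM aly-MIR-156e-5p falls below 1.

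For most names in both libraries the same sequence was listed. It was identical in 59 of 69 names (85.5%), in 7 one sequence lay inside the other, in 2 they overlapped with a shift, and in 1 they were 1 base apart. That name was osa-MIR-5072, with C7T, the pea base first, then the position from the 5′ end, then the soybean base. Fragment-like names were 4 of these 10, among them peu-MIR-2916 and ath-MIR-8175. For gma-MIR-1511 the listed sequence had 21 nt in pea and 17 nt in soybean.

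Counted by sequence in place of name, 60 listed sequences were in both libraries and held 97.1% of the level in pea and 87.4% in soybean. The seeds overlapped further. Of 72 seeds in pea and 111 in soybean, 60 were in both, with 99.6% of the pea level and 92.1% of the soybean level. Names coded for soybean itself (gma) had a listed sequence equal to the reference for 21 of 34 names in pea (61.8%). In soybean this was so for 32 of 54 (59.3%). The name sets differ, as 31 gma names were in both libraries, so these percentages do not compare like with like. By level, gma names equal to their reference held 17.8% in pea, of 30.3% for all gma names. In soybean they held 23.2%, of 26.3%. gma-MIR-156f, whose listed sequence lay inside its reference, held 10.5% in pea.

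Names listed in 1 library only were mostly rare. The 11 pea-only names had a median of 8 reads and held 11.1% of the pea level, nearly all of it gma-MIR-156f. The 58 soybean-only names had a median of 13 reads and held 6.67% of the soybean level. Of these 58, 41 lay under the lowest share that a pea listing can have, so a lack in pea was not detectable at this number of miRNA reads, and 17 lay at or above it. Sequence relatives in the other library were found for several. For 7 of the 11 pea-only names and 18 of the 58 soybean-only names, a listed sequence of the other library was the same, inside, overlapping or 1 base apart.

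Listed sequences of both libraries ran from 14 to 22 nt, with the 21 nt class first. It held 75.0% in pea and 68.9% in soybean. The 22 nt class, in which vun-MIR-2118, gma-MIR-482d-3p and gma-MIR-1507a fall, had 19.8% in pea (19.4–20.2) and 17.2% in soybean (17.1–17.4). Sequences under 18 nt held less in pea, 3.47% (3.31–3.64) against 6.38% in soybean (6.29–6.48), and the short classes had different members. At 14 nt pea held 3.13% and soybean 0.681%, led in both by ath-MIR-3932b-5p, with bdi-MIR-5054 next in pea. At 16 nt pea held 0.0371% and soybean 3.56%, where the soybean form of bdi-MIR-5054 is placed. The whole level of a name is placed at the length of its listed sequence.

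**Figure D4:**
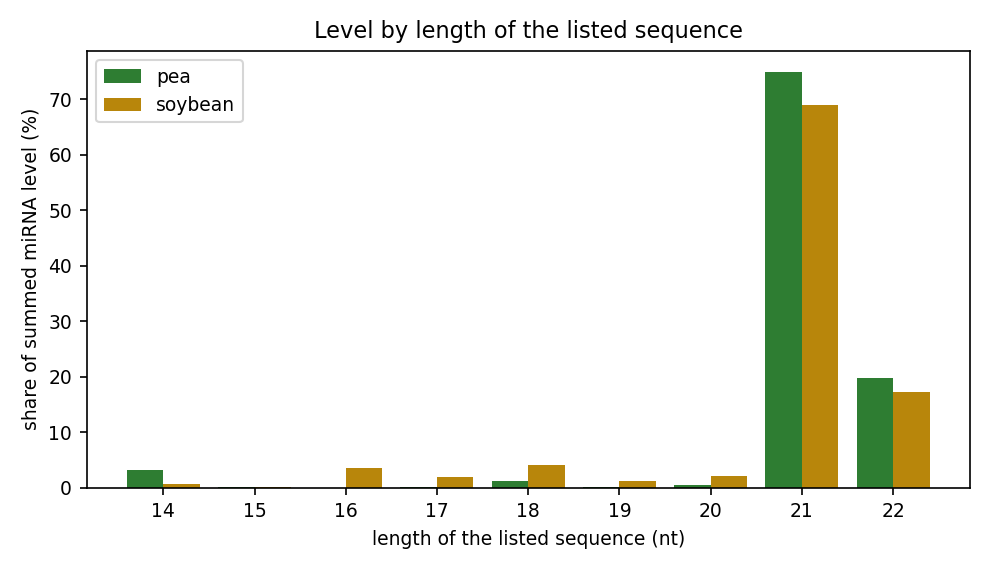
Share of the summed miRNA level (vertical, %) by length of the listed sequence (horizontal, nt) in pea (left bars) and soybean (right bars). At 21 nt the bars stand at 75.0% and 68.9% and at 22 nt at 19.8% and 17.2%, while 16 to 20 nt hold more in soybean.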

How the data were processed

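The authors removed low-quality reads, repeats and adaptors, matched reads to plant mature miRNAs of miRBase with MIRPIPE at up to 2 mismatches, and deposited levels in RPM. The merged table was used, and all its 950 values matched the files of single libraries. In each library RPM values were whole multiples of 1 step within 0.01 of a read, which gave the reads, counted as such steps. Shares of the summed level were compared as pea over soybean, with Wilson and exact binomial intervals. Neither a count test nor a replicate check was possible with 1 library per plant.

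Names given with values are the 12 highest of each library, the 8 highest and 8 lowest ratios among names with 20 reads or more, the 5 highest names of 1 library only, the leaders of each group and pairs of related sequences. Other names were chosen after their values were seen. Members, groups and the list of fragment-like names were chosen with earlier results of these data known. Alternatives were other scalings, read minimums, units, folds, lengths and files. The read recovery and the intervals were tested on simulated data. Scripts ran under Python 3.11.15 with pandas 2.3.3, numpy 2.4.6 and scipy 1.17.1, and plots were drawn with matplotlib 3.10.9. No genome was used here, so no coordinates are given.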

Additional observations from a re-analysis of the deposited data

How the results depend on the processing

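With the deposited RPM in place of shares, 8 names were at least 2-fold higher and 52 at least 2-fold lower in pea, against 17 and 19 by share. RPM also turned 4 of the 30 log2 ratios that were past 2-fold among named miRNAs and groups, to -0.81 for aly-MIR-166h-3p, -0.15 for aly-MIR-156e-5p, -0.91 for the HD-ZIP III regulators and -0.83 for the tasiRNA and auxin receptor regulators. With 5 reads added to each name in each library and names of 1 library included, the counts were 54 higher and 33 lower, since more names enter and the same reads weigh more in the smaller pea library. With 4-fold in place of 2-fold they were 10 higher and 10 lower. All other alternatives kept these counts within 1.5 times, and where single ratios were recomputed none turned a ratio past 2-fold. They were ratios centred on their median, shares without fragment-like names or without mtr-MIR-159a, a minimum of 10 reads, an equal lowest share, sequences of 18 nt or more, families, listed sequences and the files of single libraries. By family and by listed sequence only the counts were recomputed. By family no count of equal sequences can be made. No paired analysis was possible because each plant has 1 library, which also leaves no replicate to leave out. The low number of miRNA reads in pea limits every statement on names with few reads.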

Other observations

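A few names outside the groups differed as much as the old families, and are given as values. ath-MIR-3932b-5p, with a listed sequence of 14 nt, had 856 reads in pea (1.87%) and 986 in soybean (0.351%), a ratio of 5.32 (4.85–5.83). vvi-MIR-3630-3p had 44 and 24 reads, a ratio of 11.2 (6.68–19.3). bdi-MIR-7767-5p was lower in pea, with 38 reads in pea and 1634 in soybean (ratio 0.142, 0.100–0.196), and so was gma-MIR-394f, of a family that acts on an F-box gene, with 5 and 159 reads (ratio 0.193, 0.0617–0.459). The 17 names outside the groups held 2.56% in pea and 1.33% in soybean, a ratio of 1.93 (1.81–2.06) that is 0.479 by RPM.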
